A study of Bos taurus with 6 samples.

Results

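The amino acid transporters described here are carrier proteins of the plasma membrane that bring amino acids into the cell or exchange them across its membrane. The genes were SLC43A1, SLC43A2, SLC7A1, SLC7A5, SLC7A11, SLC3A2, SLC38A2, SLC1A4, SLC1A5 and SLC6A9, and every transcript cluster (the set of probes that the array assigns to a gene) whose symbol was equal to a listed name was taken. Of the 10 genes, 9 were found, with 10 of the 26773 transcript clusters of the table, because SLC6A9 is represented by a pair of transcript clusters. SLC43A1 was not analysed here.

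Primary bovine granulosa cells (GC), the steroid-producing cells that surround the oocyte in the follicle, were kept in serum-free culture for 9 days, and their RNA was measured with Affymetrix gene arrays of the Bovine Gene 1.0 ST type, 1 for each of 6 cultures. Normal density cultures (n = 3) were plated at 100000 cells per well and high density cultures (n = 3) at 1000000 cells per well. Wells of both densities were coated with collagen and received the same supplements, namely 20 ng/ml of FSH, 50 ng/ml of IGF-1 and 2 μM androstenedione, in a medium with L-glutamine and non-essential amino acids. The cells were pooled from small to medium follicles of abattoir ovaries of many cows, whose cycle stage was not determined, and were stored frozen before plating. The study's methods call the samples GC preparations and the labels do not say whether a preparation was shared between densities, so the p-values measure the spread between cultures of pooled cells and not between animals.

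Amino acid carriers differ in how they are driven. SLC6A9 and SLC38A2 import their substrates together with sodium, whereas SLC1A4, SLC1A5, SLC7A5 and SLC7A11 exchange an amino acid outside the cell for another inside it. SLC7A1 and SLC43A2 let amino acids pass along their gradient. SLC7A5 and SLC7A11 are light chains that reach the membrane only when bound to the heavy chain SLC3A2. Many of these genes are known targets of ATF4, the transcription factor of the amino acid response, in which the kinase GCN2 (EIF2AK4) reacts to uncharged tRNA. In the follicle, GC take up amino acids for themselves and pass some of them on to the oocyte through gap junctions.

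Values are log2 signals, deposited after the RMA procedure, and a change is the log2 fold change (FC), the mean at high density minus the mean at normal density. A transcript cluster was called up- or down-regulated when its FC exceeded 1.5 in size and both its p-value and its adjusted p-value from limma (Benjamini-Hochberg over all transcript clusters) were below 0.05. The 95th percentile of the 82 reporter control rows, 4.62, served as the background level, below which the size of a change is limited. Signals of different transcript clusters depend on their probes and were not set against each other. In RNA from whole cultures, a larger share of cells that express a gene and more RNA per cell cannot be told apart.

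At high plating density 6 carriers, most of them exchangers, rose and SLC43A2 fell. Of the 10 transcript clusters, 6 were up-regulated (SLC6A9, SLC1A4, SLC7A11, SLC7A5, SLC1A5 and SLC7A1), 1 was down-regulated (SLC43A2) and 3 were not called (SLC3A2, SLC38A2 and the second transcript cluster of SLC6A9). Among all transcript clusters, 7.49% were called, 3.97% up and 3.51% down. The median log2 fold change was 1.19 over the 10 transcript clusters and 0.02 over all of them. In all 10 the ranges of the densities did not overlap, which was the case for 37.3% of all transcript clusters.

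**Figure D1:**
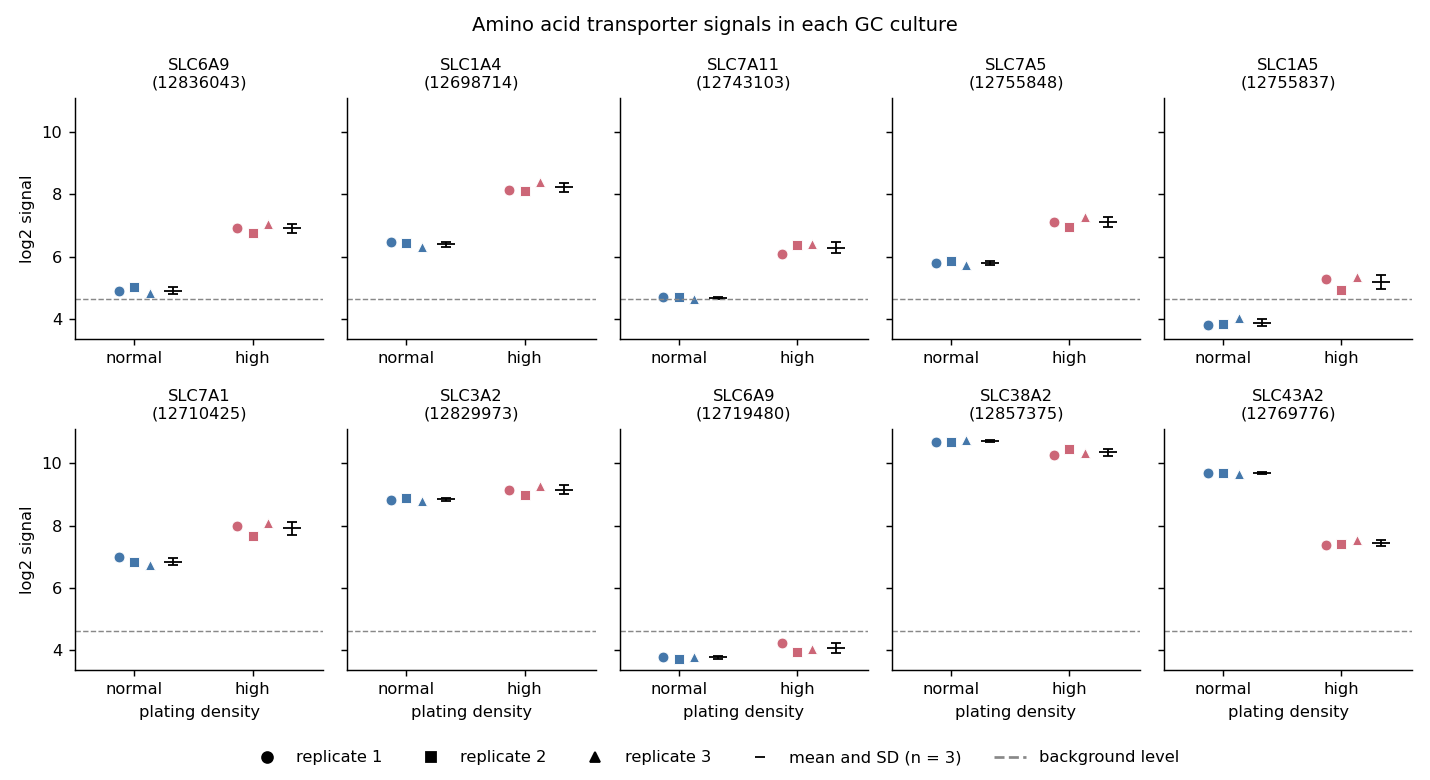
Log2 signals (vertical axis) of the 10 amino acid transporter transcript clusters at normal and high plating density (horizontal axis), with a symbol per culture, mean and SD (n = 3) in black and the background level of 4.62 as a dashed line. The panels run from the largest rise (SLC6A9, 3.99-fold) to the largest fall (SLC43A2, 4.73-fold), and in each of them the cultures of both densities are separated.

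SLC43A2 (transcript cluster 12769776), also named LAT4, is a sodium-independent carrier of leucine, isoleucine, valine, phenylalanine and methionine. Its signals were 9.70, 9.68 and 9.65 in the normal density cultures and 7.38, 7.39 and 7.54 in the high density cultures. Every high density culture was lower than every normal density culture, by at least 2.11 on the log2 scale, and all 6 signals exceeded background. The change was −2.24 on the log2 scale (SE 0.07 and adjusted p = 1.07e-05 in limma), a 4.73-fold fall. It was number 10 among the falls of the table. The related gene SLC43A3, whose product is known as a carrier of purine nucleobases, moved the other way, from 7.95 ± 0.02 (SD, n = 3) to 8.56 ± 0.14, a log2 fold change of 0.61 (SE 0.09 and adjusted p = 0.00267 in limma). This rise was close to the FC threshold and was not called with the arrays shifted to the same median (0.57) or without high density replicate 1 (0.56).

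SLC6A9 encodes GLYT1, which imports glycine with sodium and chloride. The signals of transcript cluster 12836043 were 4.88, 5.02 and 4.83 at normal density, close above the background level, and 6.91, 6.75 and 7.05 at high density. This was the largest rise of the listed genes, a 3.99-fold increase (SE of the log2 fold change 0.10 and adjusted p = 3.36e-05 in limma). The second transcript cluster of the symbol, 12719480, gave 3.78, 3.71 and 3.77 at normal density and 4.23, 3.93 and 4.02 at high density. All of these were below the background level, and the log2 fold change of 0.30 (95% confidence interval 0.09 to 0.52 and adjusted p = 0.0605 in limma) was not called. The transcript clusters of SLC6A9 therefore disagreed in size, and only 12836043 had signals above background.

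SLC1A4 and SLC1A5, known as ASCT1 and ASCT2, exchange small neutral amino acids in a sodium-dependent way. SLC1A5 is also a major route for glutamine. SLC1A4 (12698714) had signals of 6.47, 6.42 and 6.30 at normal density and of 8.16, 8.11 and 8.40 at high density. The cultures were separated by 1.65 and the log2 fold change was 1.83 (SE 0.10 and adjusted p = 4.35e-05 in limma). SLC1A5 (12755837) had signals of 3.79, 3.83 and 4.01 at normal density, all below the background level, and of 5.29, 4.92 and 5.35 at high density, all above it. SLC1A5 thus rose by 1.31 on the log2 scale (SE 0.13 and adjusted p = 5.54e-04 in limma), with a size that is limited by the background level. Since SLC1A5 started below the background level, no difference between the changes of SLC1A4 and SLC1A5 is given.

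SLC7A11, or xCT, takes up cystine in exchange for glutamate and so supplies cysteine. For SLC7A11 (12743103) the signals were 4.69, 4.70 and 4.64 at normal density, at the edge of the background level, and 6.08, 6.37 and 6.41 at high density. The lowest high density culture was 1.38 above the highest normal density culture. SLC7A11 rose by 1.61 on the log2 scale (SE 0.10 and adjusted p = 8.39e-05 in limma), a 3.06-fold increase, measured from a level that was hardly above background.

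SLC7A5, or LAT1, exchanges large neutral amino acids such as leucine, usually for glutamine. SLC7A5 (12755848) had signals of 5.80, 5.87 and 5.74 at normal density and of 7.12, 6.94 and 7.29 at high density. All cultures were above background, and the rise was 1.31 on the log2 scale (SE 0.10 and adjusted p = 1.89e-04 in limma), a 2.48-fold increase. SLC7A5 and SLC43A2 share substrates but moved in opposite directions.

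SLC7A1, or CAT1, is the main carrier of arginine and lysine in many cells. Its signals (12710425) were 6.97, 6.83 and 6.73 at normal density and 7.97, 7.68 and 8.09 at high density. The groups did not overlap, although the gap of 0.70 was the narrowest of the 7 called clusters of the listed genes. SLC7A1 rose by 1.07 on the log2 scale (SE 0.12 and adjusted p = 0.00107 in limma), a 2.10-fold increase. It was not called by limma's treat, a test against the FC threshold instead of against 0 (adjusted p = 0.102).

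SLC3A2 encodes the heavy chain 4F2hc (CD98). SLC3A2 (12829973) was above background at both densities, with signals of 8.82, 8.89 and 8.80 at normal density and 9.16, 8.99 and 9.29 at high density. The high density cultures were all higher, but by a gap of only 0.10. The log2 fold change of 0.31 (95% confidence interval 0.10 to 0.52) passed neither the FC nor the FDR threshold (limma's adjusted p = 0.0528).

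The up-regulated light chains SLC7A5 and SLC7A11 were compared with their shared heavy chain SLC3A2. SLC7A6, a light chain that was called down (described below), was not compared. Since both light chains had been called up and SLC3A2 had not, the direction of the differences follows from the changes given above. Within each array the signal of SLC3A2 was subtracted from that of a light chain, which gives the difference between their changes. It was 2.01-fold for SLC7A5 (SE 0.02 on the log2 scale) and 2.47-fold for SLC7A11 (SE 0.13). High and normal density cultures did not overlap in either (two-sided exact permutation test, p = 0.1 each). Because SLC7A11 started at the edge of the background level, the size of its difference is limited. SLC7A5 and SLC3A2 had the same order of cultures at each density, with replicate 3 highest and replicate 2 lowest at high density. This order was not particular to the pair. SLC6A9 (12836043) had it at both densities, and SLC1A4, SLC1A5 and SLC7A1 had it at high density. For SLC7A1, which works without a heavy chain, the change minus that of SLC7A5 was −0.24 (SE 0.07, exact permutation test, p = 0.1). The p-values were adjusted over 4 pairs, SLC1A4 and SLC1A5 included, and the adjusted p was 0.1 for each, the smallest p that 3 cultures against 3 allow.

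SLC38A2, or SNAT2, imports alanine, glutamine and other small neutral amino acids with sodium and is known to rise in cells deprived of amino acids. SLC38A2 (12857375) had signals of 10.68, 10.69 and 10.75 at normal density and of 10.26, 10.47 and 10.33 at high density. The high density cultures were lower by a gap of 0.21. The log2 fold change of −0.35 (95% confidence interval −0.53 to −0.17) passed the FDR threshold (limma's adjusted p = 0.0198) but at 1.27-fold not the FC threshold, so it was not called.

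**Figure D2:**
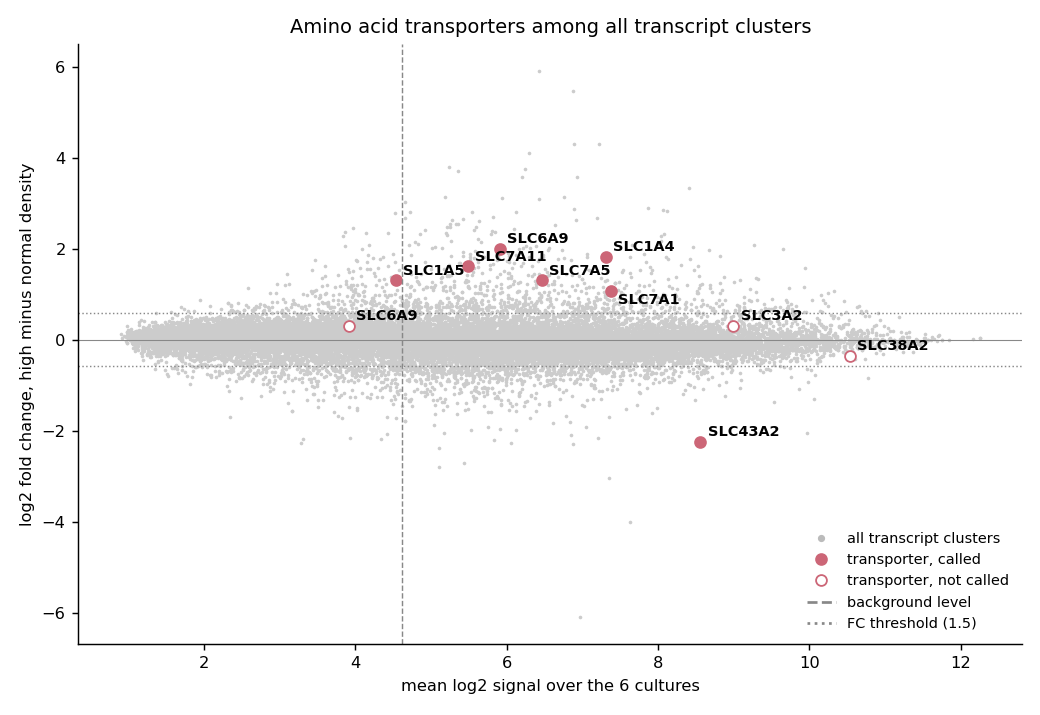
Log2 fold change, high minus normal density (vertical axis), against the mean log2 signal over the 6 cultures (horizontal axis) for all 26773 transcript clusters in grey and the amino acid transporters in red, filled when called. SLC43A2 lies at −2.24, SLC1A5 and the second SLC6A9 transcript cluster lie left of the background level of 4.62, and SLC3A2 (0.31) and SLC38A2 (−0.35) lie between the dotted lines of the FC threshold.

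The cultures of a density were not equally close to each other. Their median SD over the 10 transcript clusters was 0.06 in normal and 0.16 in high density cultures, and the SD was larger at high density in all 10, as it was in 68.4% of all transcript clusters. Among the 6 up-regulated transporters, high density replicate 2 was the lowest of its group in 5, the exception being SLC7A11, in which replicate 1 was the lowest. High density replicate 3 was the highest of its group in 8 of the 10 transcript clusters. Among the other up-regulated transcript clusters of the table, replicate 2 was the lowest in 46.3%. Leaving out each culture in turn kept the calls of all 7 called transporters, with log2 fold changes between 1.92 and 2.07 for SLC6A9, 1.74 and 1.88 for SLC1A4, 1.55 and 1.72 for SLC7A11, 1.23 and 1.40 for SLC7A5, 1.23 and 1.44 for SLC1A5, 0.98 and 1.18 for SLC7A1 and −2.29 and −2.21 for SLC43A2.

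The other amino acid transporters of the array were examined as a list of 45 symbols, of which 42 were found with 43 transcript clusters. Of these, 6 were up-regulated, 5 were down-regulated and 32 were not called, and their median log2 fold change was 0.02. The share called was 25.6%, beside 7.49% of all transcript clusters. The 6 include SLC43A3, the purine nucleobase carrier described above, which is listed for its family. In 25 of the 43 transcript clusters both group means were at or below the background level, where the sizes of changes are limited.

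SLC38A4 (12860539), a system A importer like SLC38A2, had the largest change of this list. Its signals were 2.87, 3.25 and 3.29 at normal density, all under background, and 6.10, 6.21 and 6.20 at high density. SLC38A4 rose by 3.03 on the log2 scale (SE 0.12 and adjusted p = 1.58e-05 in limma), with a size limited by the background. In the SLC38 family as a whole, 2 of 11 transcript clusters rose and 3 fell (45.5% called, beside 7.49% of all transcript clusters). SLC38A5 (12908150), which carries glutamine, serine and glycine, rose from 5.15 ± 0.14 (SD, n = 3) to 6.17 ± 0.21, a log2 fold change of 1.02 (SE 0.12 and adjusted p = 0.00147 in limma). SLC38A1, the system A importer SNAT1, had signals of 9.72 ± 0.04 and 9.89 ± 0.12 and was not called (log2 fold change 0.17, 95% confidence interval −0.02 to 0.36). SLC38A9, a lysosomal carrier that reports arginine to mTORC1, has a pair of transcript clusters, and both fell, with log2 fold changes of −0.71 (12784994) and −0.59 (12784981). The latter was at the FC threshold and was not called without normal density replicate 3 (−0.57), without high density replicate 1 (−0.56) or replicate 3 (−0.58). SLC38A6 fell by 0.66 on the log2 scale, and this was not called without normal density replicate 3 (−0.56) or high density replicate 1 (−0.54).

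In the SLC7 family, 3 of 13 transcript clusters rose and 1 fell (30.8% called, beside 7.49% of all transcript clusters). The fall was that of SLC7A6 (12752645), or y+LAT2, another light chain of SLC3A2 that exchanges arginine for neutral amino acids. Its signals of 8.21, 8.19 and 8.23 at normal density and 7.49, 7.39 and 7.59 at high density gave a log2 fold change of −0.72 (SE 0.08 and adjusted p = 7.71e-04 in limma). The light chains of SLC3A2 thus moved in both directions. SLC7A2, the other broadly expressed cationic carrier, had a log2 fold change of −0.12 and was not called, and SLC7A7 and SLC7A8, further light chains, had −0.04 and 0.06.

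In the SLC1 family, SLC1A1 rose beside SLC1A4 and SLC1A5. SLC1A1 (12892785), or EAAC1, imports glutamate and cysteine, and its signals of 3.26, 3.39 and 3.04 at normal density and 4.56, 5.03 and 3.99 at high density were mostly below the background level. SLC1A1 rose by 1.30 on the log2 scale (SE 0.24 and adjusted p = 0.00974 in limma), and neither the test of the study's methods (adjusted p = 0.0829) nor treat (0.334) called it.

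In the SLC6 family, the taurine transporter SLC6A6 (12798047) had signals of 5.74, 5.73 and 5.77 at normal density and 4.43, 4.57 and 4.25 at high density. All high density cultures lay below the background level. SLC6A6 fell, with a log2 fold change of −1.33 (SE 0.09 and adjusted p = 1.36e-04 in limma). SLC6A14, an importer with broad specificity, had a log2 fold change of 0.77 with both means, 3.47 and 4.24, below background, and it was not called without normal density replicate 1 or 3 or high density replicate 2. SLC36A4, a carrier of proline and tryptophan, rose from 5.69 ± 0.12 (SD, n = 3) to 6.45 ± 0.13, a log2 fold change of 0.76 (SE 0.10 and adjusted p = 0.00194 in limma).

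**Figure D3:**
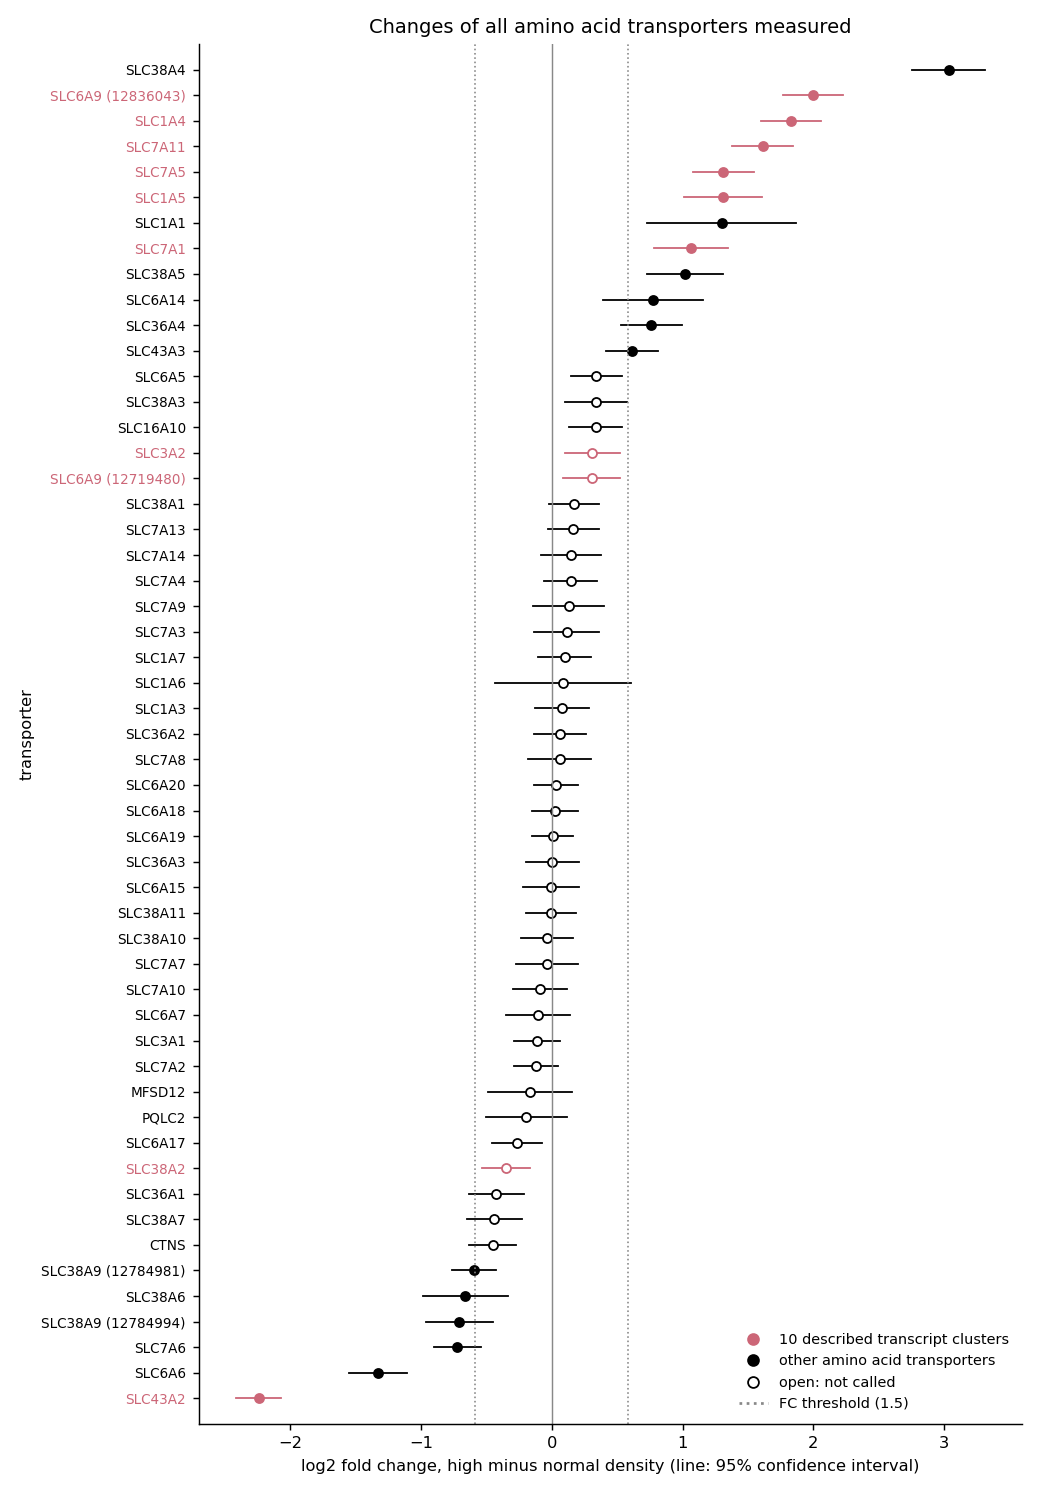
Log2 fold change, high minus normal density (horizontal axis), of the 10 described transcript clusters in red and of 43 transcript clusters of other amino acid transporters in black (vertical axis), with 95% confidence intervals from limma as lines (3 cultures per density). Filled points were called, the dotted lines mark the FC threshold of 1.5, and the range goes from −2.24 for SLC43A2 to 3.03 for SLC38A4.

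The amino acid response was examined with lists of its target genes, transporters left out, and of its regulators. Besides EIF2AK4, the regulator list holds the kinase genes EIF2AK1, EIF2AK2 and EIF2AK3 and the gene of an oxidative stress factor, NFE2L2. Whether the changes came from amino acids or from another stress signal was not tested. Of 20 transcript clusters of target genes, 14 were up-regulated and 0 were down-regulated by limma (also 0 at an unadjusted p below 0.05). The share called was 70%, beside 7.49% of all transcript clusters, and the median log2 fold change was 1.02. CHAC1, which degrades glutathione, rose from 4.39 ± 0.03 (SD, n = 3), below the background level, to 7.49 ± 0.27, a log2 fold change of 3.10 (SE 0.13 and adjusted p = 2.05e-05 in limma). STC2, a secreted stanniocalcin, rose by 2.55 from a mean of 4.08, also below background, and PYCR1, an enzyme of proline synthesis, by 1.88 from a mean above it. ASNS, the asparagine synthetase that is often used as a marker of this response, had signals of 7.90 ± 0.04 in normal and 8.40 ± 0.08 in high density cultures (SD, n = 3). Its log2 fold change of 0.50 (SE 0.07 and adjusted p = 0.00338 in limma) was below the FC threshold and was not called.

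Of 20 regulators of the response, 7 were up-regulated and 0 down-regulated by limma (4 lower at an unadjusted p below 0.05). The share called was 35%, beside 7.49% of all transcript clusters, and the median log2 fold change was 0.28. ATF4 (12858656) had signals of 8.62, 8.85 and 8.73 at normal density and 9.53, 9.54 and 9.54 at high density, and ATF4 rose by 0.80 on the log2 scale (SE 0.08 and adjusted p = 5.51e-04 in limma). TRIB3, a pseudokinase and target of ATF4 that is also counted among the target genes, rose by 1.83 on the log2 scale, DDIT3 (CHOP) by 1.13 and MYCN by 1.30. The signals of TRIB3 and MYCN at normal density, 3.45 and 4.16, were below the background level. The kinase gene EIF2AK4 had a log2 fold change of 0.29 and was not called. NFE2L2, which encodes the oxidative stress factor NRF2 known to act on SLC7A11, had signals of 9.57 ± 0.02 and 9.04 ± 0.05 (SD, n = 3) and a log2 fold change of −0.53 (SE 0.07 and adjusted p = 0.00154 in limma), below the FC threshold. EIF2AK2, the kinase gene for PKR, had a log2 fold change of −0.52 and was called down without high density replicate 2 (−0.66) or with limma's array weights (−0.60).

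Among the genes that report amino acids to mTORC1, the kinase complex for growth, 2 of 36 transcript clusters rose and 4 fell, including both of SLC38A9. The share called was 16.7%, beside 7.49% of all transcript clusters, and the median log2 fold change was −0.06. Sestrins hold mTORC1 back, and their genes moved apart. SESN2, a target of ATF4 that is counted among the target genes as well, rose from 4.91 ± 0.10 (SD, n = 3) to 5.83 ± 0.20 (log2 fold change 0.91, SE 0.11, limma's adjusted p = 0.00159). SESN3 fell from 7.89 ± 0.09 to 6.59 ± 0.20 (log2 fold change −1.30, SE 0.11, limma's adjusted p = 3.31e-04), and SESN1 had −0.48 and was not called. DEPDC5, a subunit of the GATOR1 inhibitor complex, fell by 0.82 on the log2 scale. LAMTOR5, a subunit of the Ragulator complex, had overlapping groups with both means, 4.58 and 4.03, below background and a log2 fold change of −0.55, which was called down without high density replicate 2 (−0.85) or with array weights (−0.73). SEH1L, a subunit of GATOR2 and of the nuclear pore, had a log2 fold change of 0.62 and was not called without high density replicate 2 (0.55).

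Of 19 transcript clusters of enzymes that use the imported amino acids, 3 rose and 1 fell, with a median log2 fold change of 0.09. The share called was 21.1%, beside 7.49% of all transcript clusters. For branched-chain amino acids, the substrates of SLC43A2 and SLC7A5, the transaminases BCAT1 and BCAT2 rose by 0.96 (SE 0.12 and adjusted p = 0.00149 in limma) and 0.68 (SE 0.10 and adjusted p = 0.00337 in limma) on the log2 scale. For cysteine, the substrate supplied by SLC7A11, the steps moved in different directions. CBS, the first enzyme of cysteine synthesis from homocysteine, rose from 5.30 ± 0.07 (SD, n = 3) to 6.54 ± 0.31, a log2 fold change of 1.23 (SE 0.15 and adjusted p = 0.00136 in limma). GCLC, the catalytic subunit that starts glutathione synthesis from cysteine, had signals of 9.55, 9.72 and 9.54 at normal density and 8.56, 8.62 and 8.47 at high density. GCLC fell, with a log2 fold change of −1.06 (SE 0.08 and adjusted p = 2.12e-04 in limma). For glutamine, the substrate of SLC1A5, the gene of glutamine synthetase, GLUL, had a log2 fold change of −0.56 and was not called, although it was called down with the arrays shifted to the same median (−0.60). The genes GLDC and AMT, which break down glycine in mitochondria, had log2 fold changes of 0.02 each. GCSH, a gene of the same glycine breakdown, had log2 fold changes of 0.55 (12688643) and 0.27 (12755968). Both passed the FDR threshold (limma's adjusted p = 0.00789 and 0.0347) but not the FC threshold. Transcript cluster 12688643 was called up without normal density replicate 3 (0.61) or high density replicate 1 (0.61).

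**Figure D4:**
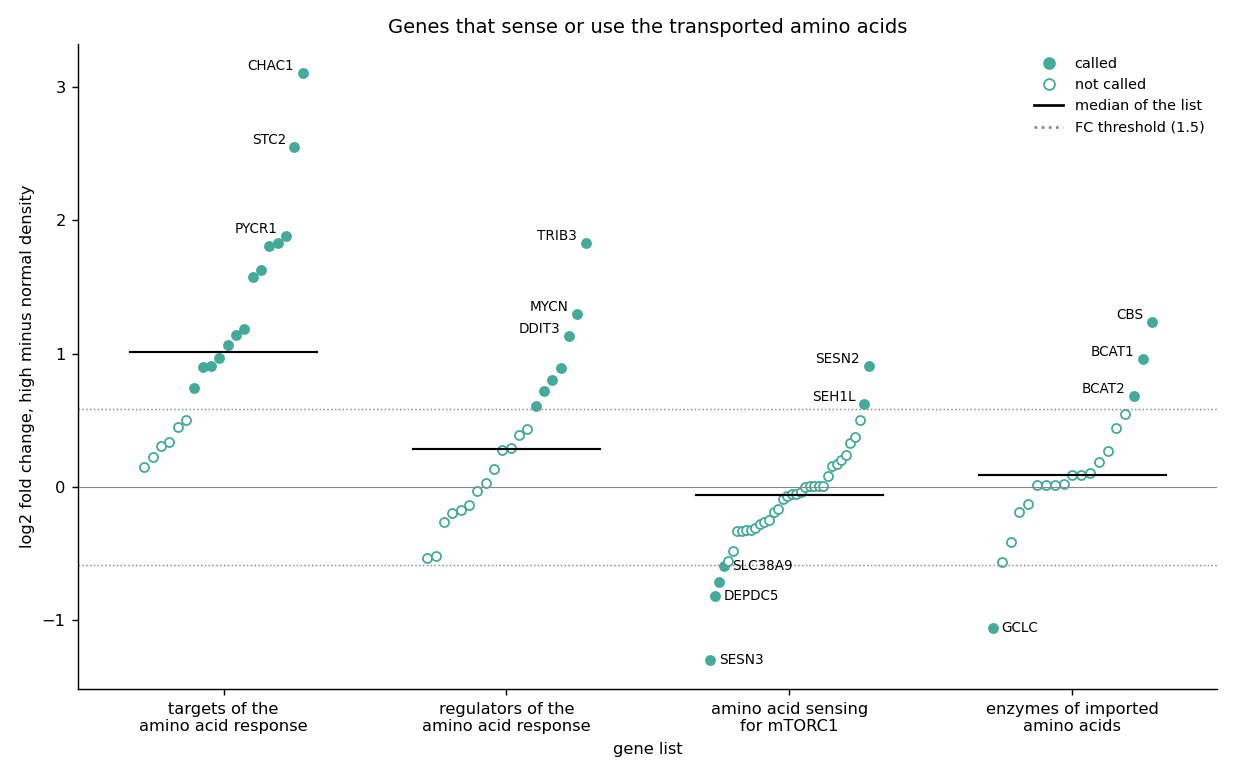
Log2 fold change, high minus normal density (vertical axis), of the transcript clusters of 4 gene lists (horizontal axis), ordered by size within a list, filled when called, with the median of each list as a line. Targets of the amino acid response have the highest median (1.02) and none below 0, whereas the lists for mTORC1 (−0.06) and for enzymes (0.09) have medians near 0.

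The labelled cell type was checked against marker genes. All 12 GC markers were found with 11 above the background level at each density, and 6 of them were down-regulated at high density, namely CYP19A1, FSHR, INHA, INHBA, FST and FOXL2. HSD17B1 was up-regulated (log2 fold change 1.26, from a mean below background), and NR5A2 (0.41) and CYP11A1 (0.26) passed the FDR but not the FC threshold. Of the theca markers, CYP17A1 (2.93 and 2.92) and ANPEP were below background at both densities, while INSL3 rose from 7.20 to 9.02. Leukocyte markers (7 of 7) and red blood cell markers except HBA were below background, as were 6 of 7 endothelial markers. The summed linear signal of the 6 surface epithelium markers went from between 760 and 795 to between 1094 and 1260, with UPK1B called up and KRT7, KRT19, MUC1 and EPCAM below background. That of 5 fibroblast markers, all above background at both densities, went from between 5036 and 5174 to between 5496 and 5633, with THY1 and COL1A1 called up. For the theca markers the summed signal was between 161 and 172 in normal and between 498 and 605 in high density cultures. For the red blood cell markers these ranges were 46.0 to 46.6 and 608 to 919. The part of these cell types in the transporter changes was not tested. Of 8 reference genes, limma called 0, and 1, B2M, had an unadjusted p below 0.05. B2M also passed the FDR but not the FC threshold (log2 fold change −0.32, limma's adjusted p = 0.0280).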

How the data were processed

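RNA of 6 bovine GC cultures, 3 per density, was measured with 1-colour Bovine Gene 1.0 ST arrays. The values were made by the authors with RMA (background reduction, normalization and summary per gene) in Affymetrix Expression Console, and the deposited values are log2 signals per transcript cluster and culture. The annotation build is not given in the sources used here, so no positions are stated. Array medians lay between 4.34 and 4.43.

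No further normalization was applied. All 26773 transcript clusters, reporter control rows included, were fitted with limma 3.58.1 in R 4.3.3 (lmFit, eBayes, no covariates). The reporter control rows gave the background level. The thresholds are those of the study's methods. Intervals are limma's 95% confidence intervals. Differences between related genes were tested with exact permutation in SciPy 1.17.1, and figures were drawn with matplotlib 3.10.9. The fits were tested on simulated data. Alternatives were other tests, variance models, scalings, filters and thresholds, the replicate number as a block, and leaving out each culture. The number of arrays limits the precision.

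The genes and lists were chosen with earlier results of these data known. Named genes are all listed transporters, and of each other list the called genes with the 3 largest rises and 3 largest falls, plus called transporters of the same families. The SLC38, SLC7, SLC1 and lysosomal groups were formed after values were seen. SLC43A1 and the study's PCR and hormone measurements were not analysed here, and no column of other samples was used. ATF4, ASNS, NFE2L2, EIF2AK2, LAMTOR5, EIF2AK4, SESN1, GLUL, GLDC, AMT, GCSH, SLC36A4, SLC38A1, SLC7A2, SLC7A7, SLC7A8, B2M, the lysosomal carriers and the marker genes were named after their values were seen. Deviations from the group means were weakly correlated between densities. The correlations were between −0.05 and 0.05 for equal replicate numbers and between −0.07 and 0.09 for unequal ones. They cannot settle whether a preparation was shared, because each group has only 3 cultures.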

Additional observations from a re-analysis of the deposited data

How the results depend on the processing

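Counts and changes were recomputed with 16 alternatives: other variance models and tests, weights for arrays, a block for replicate number, other scalings, a filter at the background level, limma's treat, an FDR threshold of 0.01, and each culture left out in turn. Transcript clusters below background (SLC6A9 12719480, SLC1A1 and SLC6A14) had 15, without the filter. Differences between related genes were recomputed with the block, a second quantile normalization and each culture left out. No named change reversed its direction. Over 34 named transcript clusters, 489 alternative values kept their side of the thresholds and 52 called changes were no longer called, most often with the Welch test or treat. Low signals and the number of arrays limit the sizes of changes that start near background. Promoter motifs, protein identities and the difference between SLC43A1 and SLC43A2 were planned but not run.

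The t-test of the study's methods called 4 other transporters up and 4 down (without SLC1A1, SLC6A14 and SLC38A6) and 6 regulators up (without ATF5). The Welch version of the t-test called 3 of the 6 rising transporters (SLC6A9, SLC1A4 and SLC7A5) and SLC43A2. It called 2 other transporters up and 1 down, 0 mTORC1 genes up and 2 down, 3 regulators, 8 targets and 0 enzymes up, and 525 up and 313 down among all transcript clusters. With treat, 1 other transporter was up and 1 down, 0 mTORC1 genes up and 1 down, 3 regulators, 9 targets and 0 enzymes up, and 369 up and 160 down in all. Array weights left 1 mTORC1 gene up and called 1 regulator (EIF2AK2) down. Shifting each array to the same median left 1 mTORC1 gene up and called 2 enzymes down (GLUL beside GCLC). With the replicate number as a block, 6 listed transporters were up and 1 down as before, and all differences between related genes had an exact permutation p of 0.25, the smallest of that pairing.

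With each culture left out in turn, 6 listed transporters were up and 1 down throughout. The counts were 5 to 6 up and 3 to 5 down for other transporters (3 without normal density replicate 3 or high density replicate 1), 1 to 2 up and 3 to 5 down for mTORC1 genes (1 up without high density replicate 2), 6 to 7 up and 0 to 1 down for regulators (1 down without high density replicate 2), 14 to 14 up for targets, 3 to 4 up and 1 to 1 down for enzymes, and 1011 to 1160 up and 833 to 1274 down for all transcript clusters. The differences between related genes were between 0.99 and 1.01 for SLC7A5 minus SLC3A2, 1.19 and 1.41 for SLC7A11 minus SLC3A2, and −0.28 and −0.18 for SLC7A1 minus SLC7A5.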

Other observations

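Lysosomal amino acid carriers, which move amino acids across the lysosomal membrane, were grouped after their values had been seen, and no test was made of the group. All 7 transcript clusters of SLC38A9, SLC38A7, SLC36A1, PQLC2, CTNS and MFSD12 were lower at high density. The 2 of SLC38A9 were called, and the median log2 fold change of the 7 was −0.44. Carriers were placed in the group with their values known, so the shared direction says nothing about lysosomal carriers as a class. SLC36A4, of the same family as SLC36A1, is not in the group and was called up (log2 fold change 0.76). CTNS, the cystine exporter of the lysosome, had signals of 6.94 ± 0.08 (SD, n = 3) at normal and 6.48 ± 0.06 at high density (log2 fold change −0.45, limma's adjusted p = 0.00583). SLC38A7 had a log2 fold change of −0.44 and SLC36A1 of −0.42, and for both limma's adjusted p was below the FDR threshold (0.0144 and 0.0162) but the FC was too small. PQLC2 (−0.19) and MFSD12 (−0.17) passed neither threshold, and their SD at high density (0.27 and 0.28) was larger than their change.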
